A study of Mus musculus with 9 samples.

Results

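Expression of 10 transcription factors that mark the mesenchyme of heart valves was followed through a retinoid treatment of mouse aortic valves, namely Twist1, Twist2, Prrx1, Snai1, Snai2, Msx1, Msx2, Tbx20, Gata4 and Gata6. They were chosen by name, and each probe set that the platform annotation pairs with a single one of these symbols was taken. Every gene had 1 such probe set, which gave 10 probe sets of the 23397 with a listed gene. Expression was measured on 9 one-colour arrays of aortic valves taken from C57BL/6J pups at postnatal day 1. Each array holds RNA pooled from the valves of 5 to 6 pups, and the pools were cultured on floating filters in medium with serum for 48 hours. The 3 groups, with 3 arrays each, were cultured with ATRA (all-trans retinoic acid) at 1 µmol/L in DMSO, with LE540, an antagonist of the retinoic acid receptors, or with DMSO alone at 0.001%. The dose and vehicle of LE540 and the sex of the pups are not given in the sources used here.

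Heart valves form from endocardial cushions, in which endocardial cells leave the lining, turn into mesenchyme and invade the matrix below. Twist1 and Twist2 are closely related basic helix-loop-helix factors that bind E-box motifs and keep mesenchymal cells undifferentiated and dividing. Snai1 and Snai2 are zinc finger repressors that drive the change from endothelium to mesenchyme, Msx1 and Msx2 are homeobox factors of the cushions, and Prrx1 is a homeobox factor of many connective tissue mesenchymes. Tbx20, Gata4 and Gata6 act in cushion cells and also in heart muscle. Retinoic acid works by binding nuclear receptors that activate genes with repeated receptor motifs, and LE540 blocks those receptors.

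The start site windows of 3 of these genes are shown because Twist2 and Twist1 differed in their pattern across the groups and because Prrx1, like Twist2, was higher on every ATRA array than on any LE540 array. The windows run from 250 bases before to 50 bases after the start site and come from RefSeq (build GRCm38.p6). Windows were used for 7 of the 10 genes, and none was used for Gata4, Gata6 and Snai2. Capitals mark any match to the 4 kinds of motif described next.
Twist2, chr1:91801211-91801510, plus strand: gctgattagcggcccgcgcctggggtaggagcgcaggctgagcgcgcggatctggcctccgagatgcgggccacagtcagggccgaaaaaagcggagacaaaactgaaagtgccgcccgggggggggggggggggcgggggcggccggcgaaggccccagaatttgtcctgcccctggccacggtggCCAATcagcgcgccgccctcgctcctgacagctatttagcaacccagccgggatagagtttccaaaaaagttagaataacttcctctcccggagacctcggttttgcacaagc
Twist1, chr12:33957421-33957720, plus strand: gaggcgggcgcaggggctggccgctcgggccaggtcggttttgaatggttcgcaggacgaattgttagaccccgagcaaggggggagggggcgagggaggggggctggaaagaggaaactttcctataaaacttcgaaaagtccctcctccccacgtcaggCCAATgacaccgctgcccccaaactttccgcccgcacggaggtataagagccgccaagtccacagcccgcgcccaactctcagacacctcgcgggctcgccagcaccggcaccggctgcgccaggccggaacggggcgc
Prrx1, chr1:163313601-163313900, minus strand: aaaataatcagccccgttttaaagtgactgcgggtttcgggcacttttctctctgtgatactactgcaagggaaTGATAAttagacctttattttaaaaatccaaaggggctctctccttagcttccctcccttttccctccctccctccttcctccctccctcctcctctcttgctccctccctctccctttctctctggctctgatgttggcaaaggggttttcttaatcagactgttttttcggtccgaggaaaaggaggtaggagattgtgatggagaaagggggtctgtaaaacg
The motifs searched, on both strands, were the retinoic acid receptor motif (AGGTCA or AGTTCA or GGGTCA or GGTTCA), the E-box (CANNTG), the CCAAT box (CCAAT) and the GATA motif (AGATAA or TGATAA or AGATAG or TGATAG). Neither the receptor motif nor the E-box was in any of the 3 printed windows. The CCAAT box stood once in the Twist2 window, at position -63 from the start site, and once in the Twist1 window, at -89, while the Prrx1 window held a GATA motif at -176. Of all 32851 windows of this length, 43.7% held the receptor motif, 72.3% the E-box, 37.4% the CCAAT box and 29.8% the GATA motif. Among the 7 windows used, 1 held the receptor motif (Msx1), 3 held an E-box (Msx1, Msx2 and Snai1), 5 a CCAAT box and 1 the GATA motif. A direct repeat of the receptor motif with 1, 2 or 5 bases between the copies was in 0 of the 7 windows, against 0.588% of all windows. These matches describe the letters in the windows and say nothing of binding.

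Values are intensities after RMA, a method that corrects background, brings arrays to a common distribution and gives each probe set a single value. They were tested on the log2 scale with limma, in 1 model over all 9 arrays, and a gene passed where its p, adjusted by Benjamini-Hochberg over all 23397 probe sets, was under 0.1, the false discovery rate that the series' design names. Array medians lay between 124 and 128. LE540 replicate 1 stood apart on the first principal component (32.5% of the variance), at 63.7 against -21.5 to 13.9 for the other arrays, and calls that it ends, and the larger changes that it moves by over 1.5 times, are also given without it. The defining markers of valve interstitial cells were present, with all 12 above the median of all values on every array, and so were 11 of 15 cardiomyocyte and 3 of 10 endothelial markers. Transcripts of several cell types were thus present, and in RNA from whole explants fewer cells of a type and less RNA per cell cannot be told apart. The ATRA treatment could be seen in genes known to answer retinoic acid. Dhrs3, which reduces retinaldehyde, rose 7.01-fold in ATRA over DMSO explants (3520 ± 1099 in ATRA, against 516 ± 203 in DMSO, SD, n = 3 each, limma adjusted p = 0.0508), Tgm2, a transglutaminase, rose 5.00-fold and Cyp26a1, which degrades retinoic acid, 2.37-fold. In fits with 1 array left out the Tgm2 call held in 9 of 9, and those of Dhrs3 and Cyp26a1 in 3 of 9 each. Rarb (log2 change 2.25, adjusted p = 0.353) and Cyp26b1 (0.87, adjusted p = 0.146) did not pass in that comparison. In ATRA vs LE540 4 of these 5 genes passed (3 without LE540 replicate 1), beside 0.603% of all probe sets. In LE540 vs DMSO 0 passed in limma, beside 0.0299% of all, and 0 had an unadjusted p under 0.05, beside 8.8% of all. The pools also differed in a score of Y-linked transcripts, which was -0.034 to 1.35 in ATRA, -1.52 to 1.25 in LE540 and -2.50 to 0.16 in DMSO arrays (mean centred log2).

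Twist2 was the 1 transcription factor of the 10 to pass. It had 411, 315 and 299 intensity units on the ATRA arrays, 170, 199 and 166 on the LE540 arrays and 182, 214 and 182 on the DMSO arrays. All 3 ATRA arrays were above all 6 others, whereas LE540 and DMSO arrays overlapped. In ATRA over LE540 explants Twist2 rose 1.90-fold (342 ± 60.5 in ATRA, against 178 ± 18.0 in LE540, SD, n = 3 each, log2 change 0.93, SE 0.14, limma adjusted p = 0.0526). In ATRA vs DMSO its log2 change of 0.82 (SE 0.14, 95% confidence interval 0.49 to 1.15) came with an unadjusted p of 0.000351 and an adjusted p of 0.222, so it did not pass, and DMSO arrays averaged 192 ± 18.4. In LE540 vs DMSO the log2 change was -0.11 (SE 0.14, interval -0.44 to 0.22, adjusted p = 0.837).

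Within arrays of the same replicate number, Twist2 was higher by 0.66 to 1.27 log2 in ATRA than in LE540 explants and by 0.56 to 1.18 log2 in ATRA than in DMSO explants, in 3 of 3 numbers each. The call in ATRA vs LE540 held in 13 of 20 other fits (1 of them added after seeing the data), whose adjusted p ranged from 0.0422 to 0.62 and whose log2 change ranged from 0.79 to 1.02. It was lost without DMSO replicate 1 (adjusted p = 0.121), DMSO replicate 3 (0.112), ATRA replicate 1 (0.107) or LE540 replicate 1 (0.158), when the DMSO arrays were left out (0.226), and with a cardiomyocyte score (0.119) or a valve interstitial score (0.62) as a covariate.

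Twist1, the paralogue, had another pattern. Its intensity was 282, 281 and 291 on the ATRA arrays, 420, 372 and 266 on the LE540 arrays and 261, 264 and 236 on the DMSO arrays. Every ATRA and every LE540 array was above every DMSO array, by a small margin, and LE540 replicates 1 and 2 stood highest. In LE540 vs DMSO the log2 change of Twist1 was 0.45 (SE 0.16, interval 0.093 to 0.81, unadjusted p = 0.0193, adjusted p = 0.541), and in ATRA vs DMSO it was 0.17 (SE 0.16, adjusted p = 0.999). In ATRA vs LE540 it was -0.29 (SE 0.16, adjusted p = 0.619), or -0.15 without LE540 replicate 1. Without LE540 replicate 3, the LE540 array with the lowest Twist1, the LE540 vs DMSO change was 0.64 and passed (adjusted p = 0.0749). Without LE540 replicate 1 it was 0.31 (adjusted p = 0.870).

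**Figure D1:**
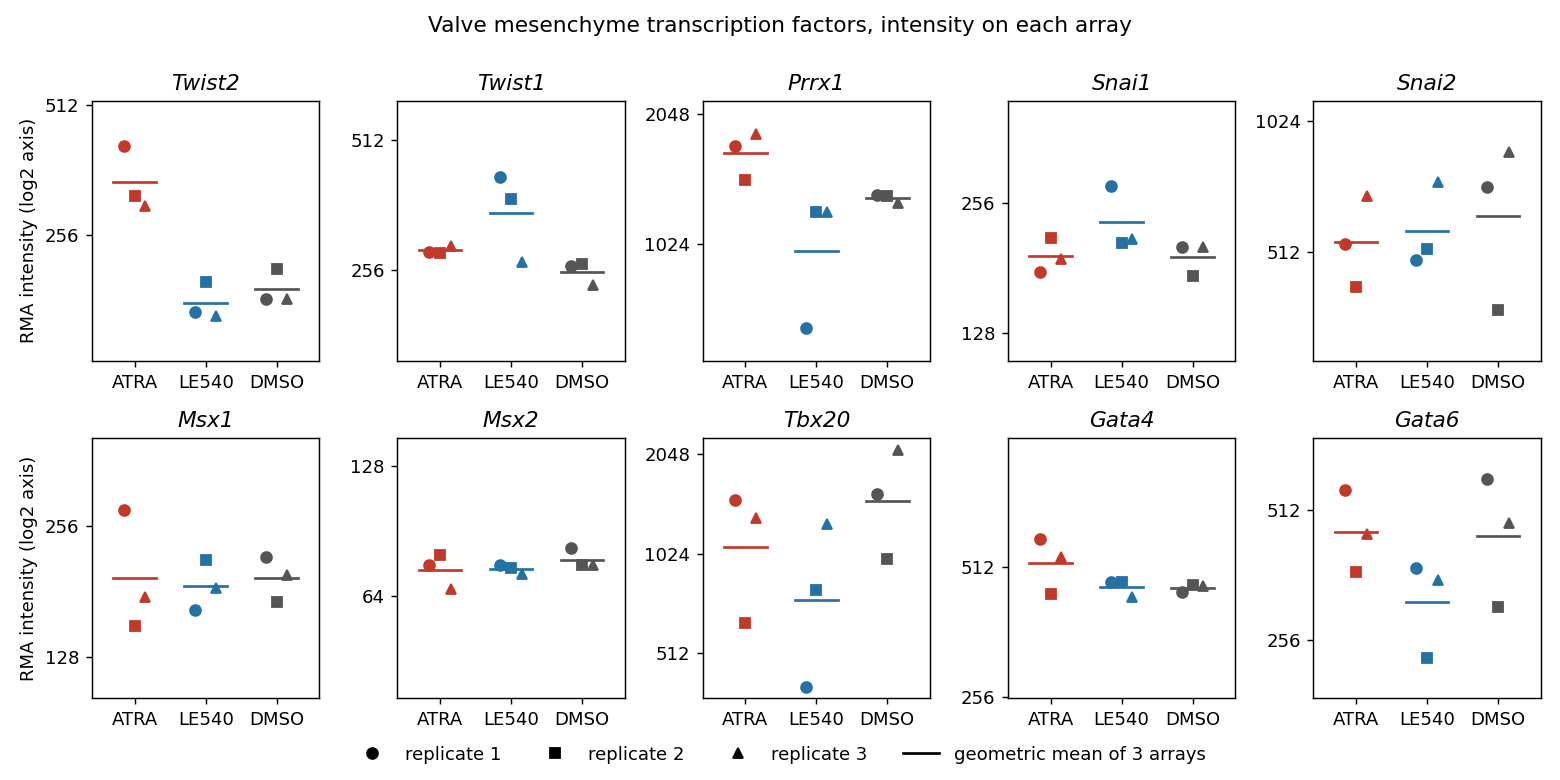
RMA intensity of each transcription factor on the 9 arrays, with a log2 axis; points are arrays (shape gives the replicate number), lines are geometric means of 3 arrays, and the groups run ATRA, LE540, DMSO. Twist2 is between 299 and 411 on ATRA arrays, above all other arrays, and Prrx1 is lowest on LE540 replicate 1 at 656.

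The difference between Twist2 and Twist1 did not overlap between any of the 3 groups. The exact permutation test used for it could not pass at this number of arrays, and no other test of it was run. Taken within each array and set to the DMSO mean, log2 Twist2 minus log2 Twist1 was 0.95, 0.57 and 0.44 on ATRA arrays, -0.90, -0.50 and -0.28 on LE540 arrays and -0.12, 0.098 and 0.023 on DMSO arrays. ATRA arrays were all above the DMSO arrays and LE540 arrays all below them, with LE540 replicate 1 lowest. The difference between the log2 changes of the paralogues was 0.65 (SE 0.16) in ATRA vs DMSO, -0.56 (SE 0.19) in LE540 vs DMSO and 1.21 (SE 0.24) in ATRA vs LE540. Each gave p = 0.1 in a two-sided exact permutation test, the smallest p that 3 arrays against 3 allow, and 0.3 after adjustment over 4 pairs and 3 comparisons. Without LE540 replicate 1 the difference was -0.39 in LE540 vs DMSO and 1.04 in ATRA vs LE540. The 3 differences are not independent, since each pair of comparisons shares a group.

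**Figure D2:**
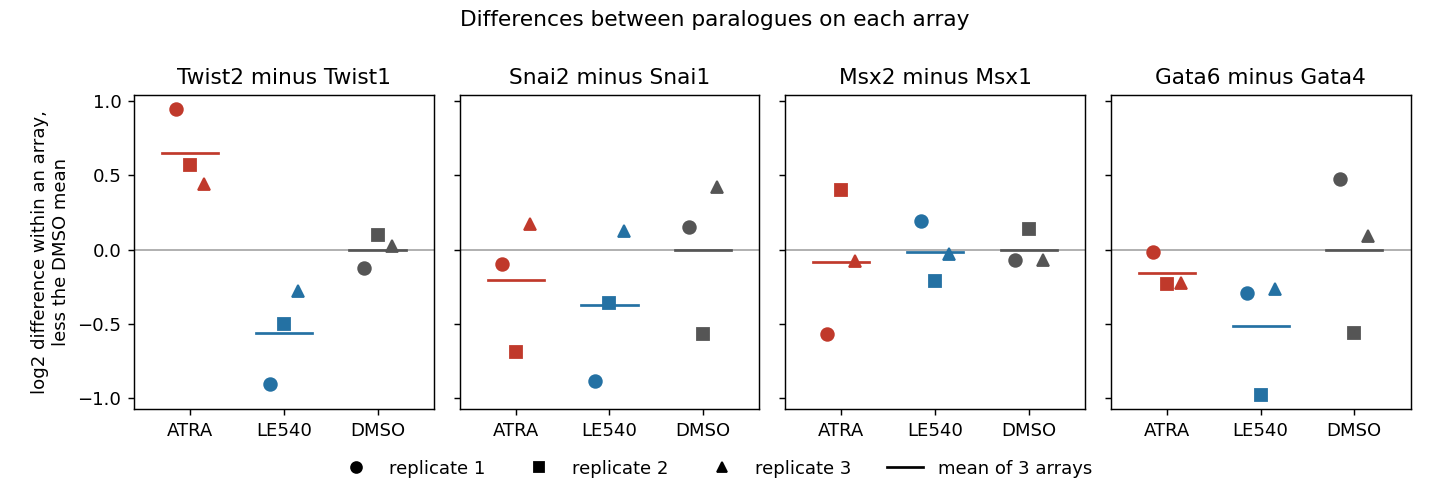
Log2 difference between the members of 4 paralogue pairs within each array, less the mean of the 3 DMSO arrays; points are arrays (shape gives the replicate number) and lines are means, with groups in the order ATRA, LE540, DMSO. For Twist2 minus Twist1 the groups do not overlap (0.44 to 0.95 on ATRA arrays, -0.90 to -0.28 on LE540 arrays), while for Snai2 minus Snai1 and Msx2 minus Msx1 they do.

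The other paralogue pairs gave no such separation of all 3 groups. How often other pairs of genes separate in this way was not counted. For Snai2 minus Snai1 the difference between log2 changes was -0.20 in ATRA vs DMSO (SE 0.39, exact permutation p = 0.6), -0.37 in LE540 vs DMSO (SE 0.41, exact p = 0.4) and 0.17 in ATRA vs LE540 (SE 0.39, exact p = 0.7). For Msx2 minus Msx1 the 3 differences lay between -0.081 and -0.014, with exact permutation p of 0.7 to 1. For Gata6 minus Gata4 the ATRA and LE540 arrays did not overlap (difference 0.35, SE 0.24, exact permutation p = 0.1, 0.3 after adjustment, or 0.12 without LE540 replicate 2), and the other comparisons overlapped (-0.16 in ATRA vs DMSO and -0.51 in LE540 vs DMSO).

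Prrx1 lay in the order ATRA, DMSO, LE540 with no overlap between any of the groups. Its intensity was 1726, 1440 and 1836 on the ATRA arrays, 656, 1212 and 1210 on the LE540 arrays and 1329, 1322 and 1272 on the DMSO arrays. LE540 replicate 1 was far below the rest, and the other LE540 arrays were just under the DMSO arrays. In ATRA vs LE540 the log2 change was 0.75 (SE 0.23, interval 0.24 to 1.26, unadjusted p = 0.00940, adjusted p = 0.319). It was 0.34 in ATRA vs DMSO (SE 0.23, adjusted p = 0.999) and -0.41 in LE540 vs DMSO (SE 0.23, adjusted p = 0.622), so Prrx1 passed in none of the 3. Without LE540 replicate 1 the changes were 0.45 in ATRA vs LE540 (adjusted p = 0.369) and -0.11 in LE540 vs DMSO (adjusted p = 0.908).

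Markers of valve interstitial cells had the same order of group levels as Prrx1, with LE540 and DMSO arrays overlapping. The summed intensity of the 12 markers was 39211 to 42149 on ATRA arrays, 20426 to 34231 on LE540 arrays and 30552 to 37886 on DMSO arrays, with the lowest LE540 value on replicate 1. Of the 12, 1 passed in ATRA vs LE540 (Vcan, higher), beside 0.603% of all probe sets. In the other comparisons 0 passed in limma, where 4 (ATRA vs DMSO) and 1 (LE540 vs DMSO) had an unadjusted p under 0.05. Over all probe sets 4.7% and 8.8% reached that level. By sign, 12 were higher in ATRA than in LE540 (11 without LE540 replicate 1, and then 0 passed), beside 43.1% of all probe sets, and 10 were higher in ATRA than in DMSO, beside 48.5%. Most endothelial and smooth muscle markers were also higher in ATRA explants, while most cardiomyocyte markers were lower. Of 10 endothelial markers, 10 were higher in ATRA than in LE540 (median log2 change 0.52, or 0.20 without LE540 replicate 1) and 10 higher in ATRA than in DMSO (median 0.50), with summed intensities of 2068 to 5650 on ATRA, 1243 to 3046 on LE540 and 1277 to 3086 on DMSO arrays. Of 6 smooth muscle markers, 6 were higher in ATRA than in LE540 (median 0.44) and 5 higher in ATRA than in DMSO (median 0.54), with sums of 3436 to 7040 on ATRA, 1820 to 2938 on LE540 and 1897 to 3703 on DMSO arrays. None of these 16 genes passed in limma in either comparison, where 2 endothelial markers and 1 smooth muscle marker in ATRA vs LE540 and 0 in ATRA vs DMSO had an unadjusted p under 0.05. Of all probe sets 9.54% and 4.7% reached that level. Of 15 cardiomyocyte markers, 12 were lower in ATRA than in LE540 (median -0.37, or -0.66 without LE540 replicate 1) and 11 lower in ATRA than in DMSO (median -0.27). Of 7 macrophage markers, 3 were lower in ATRA than in LE540 and 5 lower in ATRA than in DMSO. Of 5 epicardial and mesothelial markers, 4 were higher in ATRA in each comparison. Of all probe sets 43.1% were above 0 in ATRA vs LE540 and 48.5% in ATRA vs DMSO. Among the markers of these 3 lists 0 passed in limma in either comparison. In ATRA vs LE540 2 cardiomyocyte, 0 macrophage and 1 epicardial and mesothelial marker had an unadjusted p under 0.05, beside 9.54% of all. In ATRA vs DMSO 0, 0 and 2 did, beside 4.7% of all. The part of these cell types in the Twist2 and Prrx1 values was not tested. With the mean centred log2 value of the valve interstitial markers as a covariate, a fit added after seeing the data, the ATRA vs LE540 change of Prrx1 was 0.0055 (adjusted p = 0.999) and that of Twist2 was 1.01 (adjusted p = 0.62). That score differs between the groups, so the covariate takes up part of the group difference, and in that fit 1 of the 23397 probe sets passed in ATRA vs LE540, 14 in ATRA vs DMSO and 0 in LE540 vs DMSO.

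Snai1, the repressor that starts the loss of endothelial junctions, was 177, 213 and 190 on ATRA arrays, 281, 207 and 212 on LE540 arrays and 202, 174 and 202 on DMSO arrays. All LE540 arrays were above all DMSO arrays, with replicate 1 highest, and ATRA arrays overlapped both. Its log2 change in LE540 vs DMSO was 0.27 (SE 0.14, unadjusted p = 0.0968, adjusted p = 0.611), or 0.12 without LE540 replicate 1. In ATRA vs DMSO it was 0.0043 (SE 0.14, interval -0.32 to 0.33). Snai2, its paralogue, was 533, 425 and 690 on ATRA arrays, 489, 518 and 742 on LE540 arrays and 721, 376 and 869 on DMSO arrays, so the groups overlapped fully. Its changes lay between -0.20 and -0.089 in the 3 comparisons (SE 0.32), and the interval in ATRA vs DMSO ran from -0.92 to 0.53, which allows changes in either direction.

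Msx1 and Msx2 showed no separation of the groups. Msx1 was 279, 151 and 176 on ATRA arrays, 164, 214 and 184 on LE540 arrays and 217, 171 and 198 on DMSO arrays. Its changes lay between -0.060 and 0.063 log2 (SE 0.22), and the spread among ATRA arrays was larger than any difference between group means. Msx2 was 75.5, 79.7 and 66.7 on ATRA arrays, 75.5, 74.3 and 72.2 on LE540 arrays and 82.9, 75.5 and 75.5 on DMSO arrays. Its values lay close above the lower quartile of the arrays (57.7 to 63.0), and since no measure of background was at hand, a change there could be missed.

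Tbx20, a T-box factor needed for cushion growth and for heart muscle, had the widest spread of the 10, 5.21-fold between its lowest and highest array. Its intensity was 1494, 632 and 1318 on ATRA arrays, 406, 796 and 1263 on LE540 arrays and 1560, 986 and 2117 on DMSO arrays. Group ranges overlapped in every comparison. The log2 change was -0.999 in LE540 vs DMSO (SE 0.47, interval -2.08 to 0.080, adjusted p = 0.583), -0.46 in ATRA vs DMSO (SE 0.47, adjusted p = 0.999) and 0.54 in ATRA vs LE540 (SE 0.47, adjusted p = 0.769). Without LE540 replicate 1, the lowest array, the values were -0.56 in LE540 vs DMSO and 0.10 in ATRA vs LE540. In ATRA vs DMSO single arrays moved the change between -0.76 (DMSO replicate 2 left out) and -0.079 (ATRA replicate 2 left out), and it was -0.21 with DMSO replicate 3 left out and -0.70 with ATRA replicate 1 left out. In ATRA vs LE540 it was 0.30 without ATRA replicate 1 and 0.92 without ATRA replicate 2 or without LE540 replicate 3.

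Gata4 and Gata6 are zinc finger factors of heart muscle and cushion cells. Gata4 was 593, 445 and 541 on ATRA arrays, 473, 473 and 437 on LE540 arrays and 448, 465 and 462 on DMSO arrays. The groups overlapped, with ATRA replicates 1 and 3 the highest of the 9, and the changes were 0.19 in ATRA vs DMSO (SE 0.12), 0.0069 in LE540 vs DMSO and 0.18 in ATRA vs LE540, with adjusted p from 0.675 to 0.999. Gata6 was 570, 368 and 449 on ATRA arrays, 375, 233 and 353 on LE540 arrays and 604, 306 and 478 on DMSO arrays. In each group replicate 2 was the lowest Gata6 array and replicate 1 the highest.

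Comparing arrays of the same number, Gata6 was higher in ATRA than in LE540 explants by 0.35 to 0.66 log2 in 3 of 3 numbers. Its log2 change was -0.50 in LE540 vs DMSO (SE 0.28, adjusted p = 0.624), 0.54 in ATRA vs LE540 (SE 0.28, adjusted p = 0.609) and 0.031 in ATRA vs DMSO (SE 0.28, adjusted p = 0.999). With the replicate number as a block the SE in ATRA vs LE540 was 0.11, against 0.28 without it, and the adjusted p was 0.150, so Gata6 did not pass. In LE540 vs DMSO the change was -0.28 without DMSO replicate 1, -0.29 without LE540 replicate 2 and -0.78 without DMSO replicate 2, and in ATRA vs LE540 it was 0.32 without LE540 replicate 2. The 15 cardiomyocyte markers, of which the lowest (Myl7) averaged 128, summed to 15994 to 25161 on ATRA arrays, 14602 to 24834 on LE540 arrays and 15908 to 30298 on DMSO arrays. With their score as a covariate the Gata6 changes were -0.51 in LE540 vs DMSO and 0.56 in ATRA vs LE540, and those of Tbx20 were -1.01 and 0.58. With the valve interstitial score, a fit added after seeing the data, they were -0.37 and 0.24 for Gata6 and -0.20 and -1.24 for Tbx20. With the Y-linked score they were -0.86 and 0.38 for Gata6 and -1.35 and 0.38 for Tbx20. That score also differed between the groups (-2.50 to 0.16 on DMSO, -0.034 to 1.35 on ATRA and -1.52 to 1.25 on LE540 arrays). As a covariate it can thus take up part of the group difference. The part of heart muscle or other cells in the Gata6 and Tbx20 values was not tested.

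**Figure D3:**
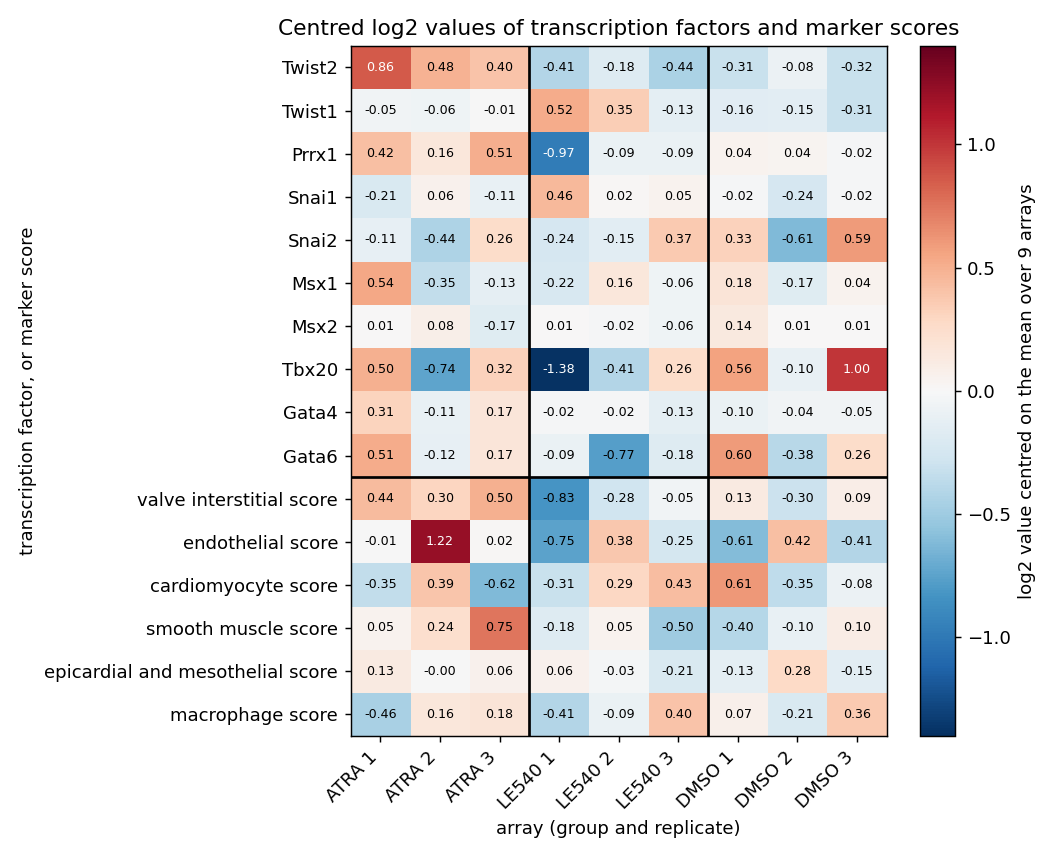
Log2 values of the 10 transcription factors and mean log2 scores of 6 marker lists on each array, centred on the mean over the 9 arrays; rows are genes or scores, columns are arrays in the order ATRA, LE540, DMSO, and colours run from low (blue) to high (red). Twist2 is above its mean on the 3 ATRA arrays alone, and LE540 replicate 1 has the lowest Prrx1, Tbx20 and valve interstitial values.

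The arrays numbered replicate 2 stood low for some of these genes and high for others. Replicate 2 was the lowest array of its group for Gata6 in 3 of 3 groups and for Tbx20, Snai2, Msx1 and Snai1 in 2 of 3. It was the highest array of its group for Twist2 in 2 of 3, and for Twist1, Gata4, Msx1, Msx2, Prrx1 and Snai1 in at least 1 of 3. The matching shares over all probe sets were not counted. The endothelial score was highest in replicate 2 of each group, at 1.22 in ATRA, 0.38 in LE540 and 0.42 in DMSO arrays, against -0.75 to 0.015 in the other arrays. Whether the endothelial share bears on these values was not tested.

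As a group the 10 genes did not move one way. In ATRA vs DMSO 0 of 10 passed in limma, where 0.0812% of all probe sets did (19 of 23397, or 29 with the replicate number as a block), and 1 (Twist2) had an unadjusted p under 0.05, a level reached by 4.7% of all. ATRA and DMSO arrays did not overlap for 3 of them (Twist2, Twist1 and Prrx1, all higher), against 4.97% of all probe sets higher, 6.34% lower and 11.3% in either direction. By sign, 7 of 10 were above 0, beside 48.5% of all, and the median log2 change was 0.018, beside -0.0057 over all probe sets. In LE540 vs DMSO 0 of 10 passed in limma, where 0.0299% of all did, and 1 (Twist1) had an unadjusted p under 0.05, beside 8.8% of all. The arrays did not overlap for 3 of 10 (Twist1 and Snai1 higher, Prrx1 lower), against 6.74% of all higher, 5.86% lower and 12.6% in either direction. By sign, 3 of 10 were above 0, beside 54.7% of all, and the median was -0.091, beside 0.021.

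In ATRA vs LE540 1 of 10 passed, Twist2, where 0.603% of all probe sets did (141 of 23397, or 221 with the replicate number as a block). Twist2 and Prrx1 had an unadjusted p under 0.05, beside 9.54% of all, and these were the 2 of 10 whose arrays did not overlap, both higher, against 5.24% of all higher, 6.24% lower and 11.5% in either direction. By sign, 6 of 10 were above 0, beside 43.1% of all, and the median log2 change was 0.12, beside -0.029 over all probe sets. The rise of Twist2 was under 2-fold, so 0 of 10 met an adjusted p under 0.1 together with a change of over 2-fold, the fold that the series' design also sets. Over all probe sets 0.0598% met both in ATRA vs DMSO, 0.0299% in LE540 vs DMSO and 0.419% in ATRA vs LE540. The 3 comparisons share arrays with each other and are not independent.

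**Figure D4:**
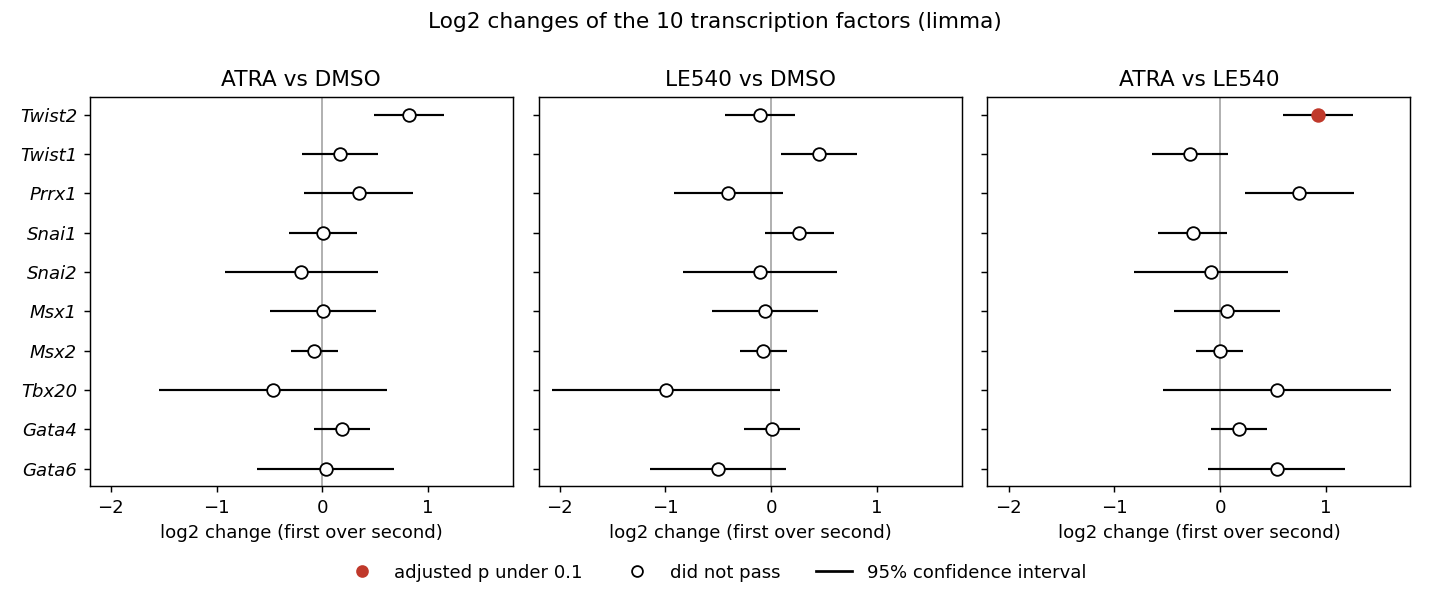
Log2 change (x axis) of each transcription factor (y axis) in 3 comparisons, the group named first over the other; points are estimates from limma, lines are 95% confidence intervals, and a filled point passed at an adjusted p under 0.1. Only Twist2 in ATRA vs LE540 passed (0.93), and the widest intervals are those of Tbx20.

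Over the 9 arrays, the genes with the pattern most like that of Twist2 were Heg1, a membrane protein of heart and vessel development, Mpzl2, a cell adhesion protein, and Ak1, an adenylate kinase. Likeness was the root mean square difference of log2 values centred on each gene's own mean, among 1814 probe sets with at least the spread of Twist2, and it was 0.12 for Heg1, 0.18 for Mpzl2 and 0.19 for Ak1. The Heg1 probe set read 463, 367 and 410 on ATRA arrays, 187, 209 and 183 on LE540 arrays and 192, 230 and 226 on DMSO arrays. In ATRA vs LE540 Heg1 (log2 change 1.09, limma adjusted p = 0.0150) and Ak1 (0.94, adjusted p = 0.0170) passed, also without any 1 array, and Mpzl2 (0.82, adjusted p = 0.306) did not. Heg1 (0.94, adjusted p = 0.0644) and Ak1 (0.89, adjusted p = 0.0512) also passed in ATRA vs DMSO, where Twist2 did not, and these calls held in 2 and 1 of 9 fits with 1 array left out. These genes were picked for their likeness to Twist2 over the same arrays, so their p-values are not independent of that choice.

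Other genes of valve formation were counted by list. Of 24 inducing signals and receptors, 2 rose in ATRA over LE540 explants and 22 did not pass, beside 0.603% of all probe sets passing. Tgfb3, a transforming growth factor that promotes cushion mesenchyme, rose 4.19-fold (492 ± 55.2 in ATRA, against 120 ± 32.9 in LE540, SD, n = 3 each, limma adjusted p = 0.00791), and passed without any 1 array as well. Bmp2, the bone morphogenetic protein that induces Twist1 and Tbx20 in cushions, rose 3.01-fold (584 ± 109 in ATRA, against 193 ± 26.9 in LE540, limma adjusted p = 0.0456). The Bmp2 call held in 4 of 9 fits with 1 array left out and was lost without DMSO replicate 1, any 1 of the ATRA arrays or LE540 replicate 1 (adjusted p up to 0.136, and 0.101 without LE540 replicate 1). The median of the list was 0.21 in ATRA vs LE540 (0.12 without LE540 replicate 1), -0.063 in ATRA vs DMSO and -0.28 in LE540 vs DMSO, and 0 of its genes passed in limma in the comparisons with DMSO, where 5 (ATRA) and 7 (LE540, or 3 without LE540 replicate 1) had an unadjusted p under 0.05, beside 4.7% and 8.8% of all. Without LE540 replicate 3, 2 of the 24 passed in LE540 vs DMSO, Tgfb3 and Bmpr2, a receptor of bone morphogenetic proteins named here after its values were seen. Tgfb3 stood at 0.74 in ATRA vs DMSO (adjusted p = 0.690) and at -1.33 in LE540 vs DMSO (adjusted p = 0.155), and Bmp2 at 1.42 in ATRA vs DMSO (adjusted p = 0.189).

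Of 20 other cushion and valve transcription factors, 1 rose in ATRA over LE540 explants, beside 0.603% of all probe sets passing. It was the forkhead factor Foxc2 (1.78-fold, 1258 ± 137 in ATRA, against 715 ± 142 in LE540, limma adjusted p = 0.0934). Against DMSO 0 passed in limma, where 4 (ATRA) and 2 (LE540) had an unadjusted p under 0.05, beside 4.7% and 8.8% of all. In ATRA vs LE540 6 reached that level (3 without LE540 replicate 1), beside 9.54% of all. The Foxc2 call held in 2 of 9 fits with 1 array left out, those without LE540 replicate 1 or 3, with adjusted p up to 0.278. Of 17 genes listed as mesenchyme and matrix genes downstream, 2 rose in ATRA over LE540 explants, beside 0.603% of all probe sets passing. By sign, 16 of 17 were higher, beside 43.1% of all probe sets, with a median of 0.61. This list is not independent of the marker lists. Postn, Vcan, Vim, Cdh11, Col1a1, Col1a2 and Col3a1 are also valve interstitial markers here, and Cdh5 is also an endothelial marker. With LE540 replicate 1 left out, 0 of the 17 passed and the median was 0.39. Vcan, the versican of the cushion matrix, rose 2.44-fold (2714 ± 871 in ATRA, against 1082 ± 128 in LE540, limma adjusted p = 0.0608), and Itga1, a collagen-binding integrin, 1.77-fold (adjusted p = 0.0957). The Vcan call held in 3 of 9 fits with 1 array left out (without ATRA replicate 1 or 2 or LE540 replicate 2) and the Itga1 call in 1 of 9 (without ATRA replicate 3). Against DMSO, 13 of the 17 were higher in ATRA (median 0.38) beside 48.5% of all, and 15 of the 17 lower in LE540 explants (median -0.34), where 54.7% of all were above 0. The LE540 median without LE540 replicate 1 was -0.075, with 7 of 17 higher. In these comparisons 0 of the 17 passed in limma, and 5 and 2 had an unadjusted p under 0.05, beside 4.7% and 8.8% of all.

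Of the 15 partners and regulators, among them the E proteins that pair with Twist factors and the Id proteins that block such pairing, 0 passed in limma in any comparison, with 0 in ATRA vs DMSO, 1 in LE540 vs DMSO and 2 in ATRA vs LE540 at an unadjusted p under 0.05. Of all probe sets 4.7%, 8.8% and 9.54% reached that level. The largest changes were those of Id3 in ATRA vs LE540 (1.01, SE 0.42, adjusted p = 0.489) and of the E protein gene Tcf4 in LE540 vs DMSO (-0.85, SE 0.37, adjusted p = 0.564). These were 0.50 for Id3 and -0.32 for Tcf4 without LE540 replicate 1. Without LE540 replicate 2 a single gene of the list passed in ATRA vs LE540, Id2, named here after its values were seen. Of the 14 paralogues 0 passed in limma as well, with 1, 2 and 0 at an unadjusted p under 0.05 in the same order of comparisons, beside the same shares of all probe sets. Prrx2, the paralogue of Prrx1, stood at 0.27 in ATRA vs DMSO (SE 0.13) and 0.38 in LE540 vs DMSO (SE 0.13, adjusted p = 0.529), Msx3 at 0.27 in LE540 vs DMSO (adjusted p = 0.553), and Tbx18 at -0.47 in ATRA vs DMSO (SE 0.20, adjusted p = 0.999).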

How the data were processed

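The deposited intensity values are RMA signals on a linear scale, 1 per probe set and array, made by the authors with Affymetrix Expression Console 1.1 and RMA, per the submitters' processing notes. The table holds 28270 rows with intensities of 4.09 to 17798. The platform annotation pairs 23397 rows with a gene, of which 21780 have 1 symbol and 1617 several, and the 4873 others were left out of the tests. Log2 values were fitted in limma 3.58.1 (R 4.3.3) in 1 model with 3 groups (6 residual and 2.725 prior degrees of freedom), and p-values were adjusted over the 23397 probe sets. The fit was also run on simulated data with independent noise. Those data held no outlying array and no likeness between equal replicate numbers, so that run cannot speak to either. Where a list gene had several probe sets, the one with the highest mean was used.

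All 10 transcription factors are named. Of each related list and comparison, up to 4 genes that passed are eligible by size of change, or else the 2 with the largest changes, plus the retinoic acid response genes and the 3 genes most like a factor that passed. The genes and lists were chosen with earlier results of these data known. Alternatives covered the replicate block, arrays in the fit, normalization, filters, prior, weights, covariates and thresholds. Replicate numbers come from the labels. The deviations of arrays with equal numbers from their group means correlated across probe sets at r = 0.143 to 0.342 for ATRA and DMSO, 0.261 to 0.282 for ATRA and LE540, and 0.00946 to 0.215 for LE540 and DMSO. Differences within a number are given for the ATRA comparisons only. The main fit and the permutation tests did not use the numbers as pairs, and the replicate block was an alternative fit. Precision is limited by 3 arrays per group.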

Additional observations from a re-analysis of the deposited data

How the results depend on the processing

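The main results counted 19 probe sets that passed in ATRA vs DMSO, 7 in LE540 vs DMSO and 141 in ATRA vs LE540. The direction of Twist2 was the same in all 20 alternative fits of each comparison. So was that of Gata4 in both comparisons of ATRA, of Twist1 and Tbx20 in both comparisons with DMSO, and of Gata6, Prrx1 and Snai1 in both comparisons of LE540. Msx2 kept its direction in 19 of 19 fits in both comparisons with DMSO. Many of these fits cannot move the log2 change, only its spread or its adjusted p. They are the replicate block, the groups compared alone, the probe set filters, the prior, and leaving out an array of the group not compared. In those fits the sign was fixed in advance, so the counts of 20 and 19 overstate the fits that could have changed it. The sign changes are those named here, and none of these genes passed in the comparison where its sign changed. With any 1 array left out, the number of the 10 factors that passed was 0 in ATRA vs DMSO, 0 to 1 in LE540 vs DMSO and 0 to 1 in ATRA vs LE540, and the number of all probe sets that passed was 4 to 22 in ATRA vs DMSO (lowest without DMSO replicate 1 or 3), 0 to 297 in LE540 vs DMSO (297 without LE540 replicate 3, 98 without LE540 replicate 2) and 54 to 278 in ATRA vs LE540 (lowest without DMSO replicate 3, highest without LE540 replicate 2). Leaving out arrays gave ranges on both sides of 0 for Gata6 (-0.24 to 0.25), Msx1 (-0.26 to 0.19), Snai1 (-0.069 to 0.066) and Snai2 (-0.56 to 0.049) in ATRA vs DMSO, for Gata4 (-0.012 to 0.045), Msx1 (-0.16 to 0.031) and Snai2 (-0.47 to 0.14) in LE540 vs DMSO, and for Msx1 (-0.20 to 0.25), Msx2 (-0.060 to 0.068) and Snai2 (-0.27 to 0.098) in ATRA vs LE540.

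With the replicate block 29 probe sets passed in ATRA vs DMSO, 1 in LE540 vs DMSO and 221 in ATRA vs LE540, and the block changed no call among the 10 factors (Twist2 in ATRA vs LE540 had an adjusted p of 0.0642). With the groups compared alone 9, 1 and 25 passed, and 0 of the 10 factors in ATRA vs LE540. With 1 probe set per gene 12 passed in ATRA vs DMSO and 12 in LE540 vs DMSO, with probe sets above the median alone 10 in ATRA vs DMSO (Msx2 was below that level and had no value), and with quantile normalization or all rows 0 in LE540 vs DMSO. At an adjusted p under 0.05, 8, 0 and 60 passed, with 0 of the 10 factors in ATRA vs LE540, as with the fold threshold. With array weights 71 passed in ATRA vs DMSO, 1 of them Twist2 (adjusted p = 0.0664), while Gata6 (-0.081), Msx1 (-0.12) and Snai1 (-0.0078) in that comparison and Msx1 (-0.11) in ATRA vs LE540 changed sign.

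With the cardiomyocyte score 6 passed in ATRA vs DMSO, 0 in LE540 vs DMSO and 72 in ATRA vs LE540, 0 of them among the 10, and Msx2 turned to 0.038 in ATRA vs LE540. With the Y-linked score 7 passed in ATRA vs DMSO, where Gata6 (-0.49), Msx1 (-0.056) and Snai1 (-0.097) changed sign, as did Gata4 in LE540 vs DMSO (-0.021) and Msx2 in ATRA vs LE540 (0.0071). With the valve interstitial score, added after seeing the data, 14 passed in ATRA vs DMSO, 0 in LE540 vs DMSO and 1 in ATRA vs LE540, 0 of them among the 10. Signs then changed for Gata6 (-0.13), Msx1 (-0.21) and Prrx1 (-0.066) in ATRA vs DMSO, for Gata4 (-0.0022), Msx1 (0.11) and Snai2 (0.34) in LE540 vs DMSO, and for Twist1 (0.16), Tbx20 (-1.24), Msx1 (-0.32) and Msx2 (0.044) in ATRA vs LE540. The cause of these shifts was not tested.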
